A study of Homo sapiens with 6 samples.

Results

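The splicing regulators described here are 10 genes that set epithelial, muscle, neuronal or general tissue-type splicing: ESRP1, ESRP2, RBFOX2, MBNL1, MBNL2, MBNL3, QKI, PTBP1, PTBP2 and PTBP3. They were chosen by gene symbol and are 10 of 26334 genes, with 51 of the 51398 RefSeq isoforms in the files, and all 10 passed the filter on low counts that left 14217 genes for testing. RNA-Seq was performed on PC-9, a human lung adenocarcinoma line with an activating EGFR mutation. The methods give RPMI with 10% FBS for the cell lines in general and name no drug treatment for these libraries. The 6 libraries, 2 per condition, came from cells with a scrambled shRNA (shScr) and from cells with shRBM10#1 or shRBM10#2, which target the splicing factor RBM10. According to the labels the controls carried shScr, and that name is used here, although the methods describe the control as parental cells. The sources used here do not say whether the 2 libraries of a condition came from separate cultures, so the p-values measure the spread between libraries, which may be technical.

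These proteins bind pre-mRNA beside alternative exons and favor inclusion or skipping according to where they bind. ESRP1 and ESRP2 drive the epithelial splicing program, RBFOX2 and QKI are widely expressed regulators prominent in mesenchymal, muscle and neural cells, and the muscleblind proteins MBNL1 to MBNL3 promote adult-type splicing, above all in muscle. PTBP1 represses many exons, PTBP2 is its neuronal paralog and PTBP3 is a further paralog, and several of these genes regulate the splicing of their own transcripts or of each other's.

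The exons that tell the isoforms of these genes apart are shown first, because the isoform results turn on them. Coordinates are from GENCODE 29 (GRCh38), reached by RefSeq identifier, and each sequence is that of the coding strand, 5′ to 3′. MBNL1 has an alternative 204-nt coding exon in the linker between its zinc-finger pairs (chr3:152432717-152432920, plus strand) and a 54-nt coding exon known to favor nuclear localization (chr3:152446704-152446757, plus strand).
MBNL1 204-nt exon: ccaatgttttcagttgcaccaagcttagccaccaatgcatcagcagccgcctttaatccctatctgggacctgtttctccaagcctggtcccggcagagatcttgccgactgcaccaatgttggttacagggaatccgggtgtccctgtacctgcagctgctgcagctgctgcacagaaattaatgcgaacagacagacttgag
MBNL1 54-nt exon: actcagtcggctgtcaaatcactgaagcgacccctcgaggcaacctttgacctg

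The 3 muscleblind genes each have a 36-nt coding exon, at chr3:152455542-152455577 in MBNL1, chr13:97365136-97365171 in MBNL2 (both plus strand) and chrX:132384663-132384698 in MBNL3 (minus strand). Capitals mark the 26 positions at which the 3 genes have the same base.
MBNL1 36-nt exon: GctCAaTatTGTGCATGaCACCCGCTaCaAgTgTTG
MBNL2 36-nt exon: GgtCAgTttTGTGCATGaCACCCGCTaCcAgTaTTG
MBNL3 36-nt exon: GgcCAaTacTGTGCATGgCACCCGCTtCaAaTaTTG

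In PTBP1, a 78-nt exon (chr19:805492-805569, plus strand) is whole in isoform NM_002819, shortened to its last 57 nt in NM_031990, and absent from NM_031991. Skipping of this exon is known to weaken PTBP1 as a repressor. Capitals mark the 57 nt that NM_031990 keeps.
PTBP1 78-nt exon: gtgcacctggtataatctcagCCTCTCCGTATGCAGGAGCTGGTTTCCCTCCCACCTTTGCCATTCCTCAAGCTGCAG

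PTBP1 and PTBP2 also share a 34-nt coding exon, at chr19:807869-807902 in PTBP1 and chr1:96806419-96806452 in PTBP2, both on the plus strand. Its repression by PTBP1 is the textbook route by which PTBP1 lowers its own and PTBP2 protein. Capitals mark the 25 bases that are the same in both genes. All 3 PTBP1 isoforms of the files hold this exon, so its skipping could not be measured in PTBP1, whereas 7 of the 9 PTBP2 isoforms match transcripts that hold it and 2 (NR_125356 and NR_125357, non-coding) match a transcript that skips it.
PTBP1 34-nt exon: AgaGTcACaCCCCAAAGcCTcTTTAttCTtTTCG
PTBP2 34-nt exon: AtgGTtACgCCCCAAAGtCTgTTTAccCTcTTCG

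QKI isoforms differ in their coding ends. The nuclear form QKI-5 (NM_006775, 341 codons) ends through a 75-nt exon (chr6:163566721-163566795), and the mostly cytoplasmic form QKI-7 (NM_206854, 325 codons) ends with 41 nt of its own (chr6:163564667-163564707), both on the plus strand.
QKI-5 75-nt coding exon: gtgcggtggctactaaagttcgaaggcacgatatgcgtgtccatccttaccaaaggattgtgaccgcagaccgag
QKI-7 41-nt coding end: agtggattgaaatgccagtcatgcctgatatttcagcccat

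Expected counts, the read counts that RSEM divides among isoforms, summed to between 31953729 and 37557507 per library. The mean fragment length implied by the files was 231.2 nt in shScr replicate 2 and 264.8 to 281.2 nt in the other libraries, so shScr replicate 2 stood apart. TPM, the level per transcript length, was higher in shScr replicate 2 than in shScr replicate 1 for 9 of the 10 regulators. For this reason levels between genes are given in TPM. Levels of single genes are compared between conditions on read counts scaled to library size (CPM) after TMM normalization. Marker sums, ratios between genes and isoform shares are in TPM. The part of the shorter fragments of shScr replicate 2 in them was not tested. RBM10, the target of the shRNAs, had 83.2 and 86.2 CPM with shScr, 59.8 and 56.4 with shRBM10#1, and 27.2 and 26.9 with shRBM10#2. Its log2 fold change (FC) was -0.54 ± 0.07 (SE, FDR = 2.28e-04) with shRBM10#1 and -1.65 ± 0.07 (FDR = 5.10e-08) with shRBM10#2. Here and below, FDR is the Benjamini-Hochberg adjusted p of edgeR's quasi-likelihood test over all 14217 genes tested, n = 2 libraries per condition, and a gene is called at an FDR below 0.05. All 8 epithelial marker genes on the list (such as EPCAM, CDH1 and KRT8) were above 1 TPM in every library. Their summed level was 26580 and 28350 TPM with shScr, 29940 and 27510 with shRBM10#1, and 23750 and 24600 with shRBM10#2, whereas 6 mesenchymal markers (such as VIM and ZEB1) summed to 2.4 to 3.57 TPM. The 6 fibroblast markers summed to 2.02 to 2.96 TPM and the 5 endothelial markers to 6.04 and 7.67 TPM with shScr, 10.3 and 12.7 with shRBM10#1, and 7.53 and 7.32 with shRBM10#2. Leukocyte markers, almost wholly CD68, summed to 101 and 117 TPM with shScr and 77.8 to 82.1 TPM with the RBM10 shRNAs. Neuronal markers, mainly TUBB3, summed to 119 and 127 TPM with shScr and 74.4 to 88.8 TPM with the RBM10 shRNAs. PTPRC, which defines leukocytes, was at most 0.05 TPM, and the neuronal markers RBFOX3 and STMN2 were at most 0.14 and 0.04 TPM. The part of these markers in the results was not tested, and in bulk RNA fewer cells of a type and less RNA per cell cannot be told apart.

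All 10 regulators were transcribed in PC-9 cells. PTBP1 was the most abundant, at 280 to 373 TPM over the 6 libraries, and ESRP1 followed at 88.8 to 103 TPM. PTBP3 (42.3 to 67.1 TPM) and MBNL1 (41 to 60.0 TPM) overlapped in level. MBNL2 (27.5 to 38.9 TPM) and ESRP2 (28.3 to 39.7 TPM) overlapped as well, and RBFOX2 lay below both at 17.0 to 23.8 TPM. QKI (6.02 to 9.87 TPM) and MBNL3 (6.67 to 9.34 TPM) were lower and did not separate from each other. The neuronal paralog PTBP2 was the lowest, at 2.09 to 3.26 TPM. The TPM of PTBP1 was 133 and 159 times that of PTBP2 with shScr, 169 and 134 times with shRBM10#1, and 85.9 and 95 times with shRBM10#2.

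**Figure D1:**
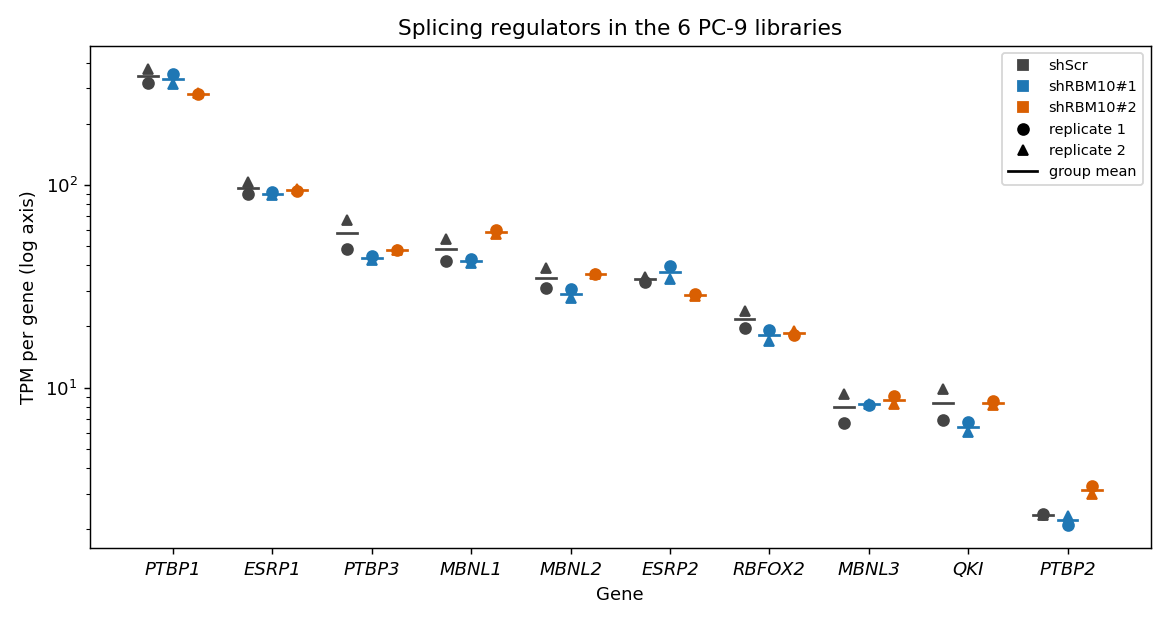
TPM of the 10 regulators in the 6 libraries, on a log axis, with genes ordered by their mean level. Colors mark the conditions, circles and triangles the replicates and horizontal lines the means of 2 libraries. PTBP1 lies at 280 to 373 TPM and PTBP2 at 2.09 to 3.26 TPM.

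PTBP3 fell with shRBM10#1, and MBNL1 and PTBP2 rose and PTBP1 fell with shRBM10#2. With shRBM10#1, 1 of 10 genes was called, against 14% of all genes tested. The unadjusted p was below 0.05 for 5, beside 4056 of all 14217. With shRBM10#2, 3 of 10 genes were called, against 25.9% of all genes. The unadjusted p was below 0.05 for 7, beside 5382 of all 14217. Between the shRNAs, 6 of 10 genes differed, with MBNL1, MBNL2, QKI and PTBP2 higher and ESRP2 and PTBP1 lower in shRBM10#2, against 25.5% of all genes. The same number had an unadjusted p below 0.05, beside 5420 of all 14217. When the 4 knockdown libraries were pooled, edgeR called 0 of 10 genes, against 1.62% of all genes. The unadjusted p was below 0.05 for 1 (PTBP3), beside 2450 of all 14217, and DESeq2 called 0, beside 718 over all genes. The median log2 FC of the 10 genes was -0.05 with shRBM10#1 and 0.06 with shRBM10#2, beside a median of 0.01 over all genes in each. None of the 10 changed by more than 1 on the log2 scale in any comparison.

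**Figure D2:**
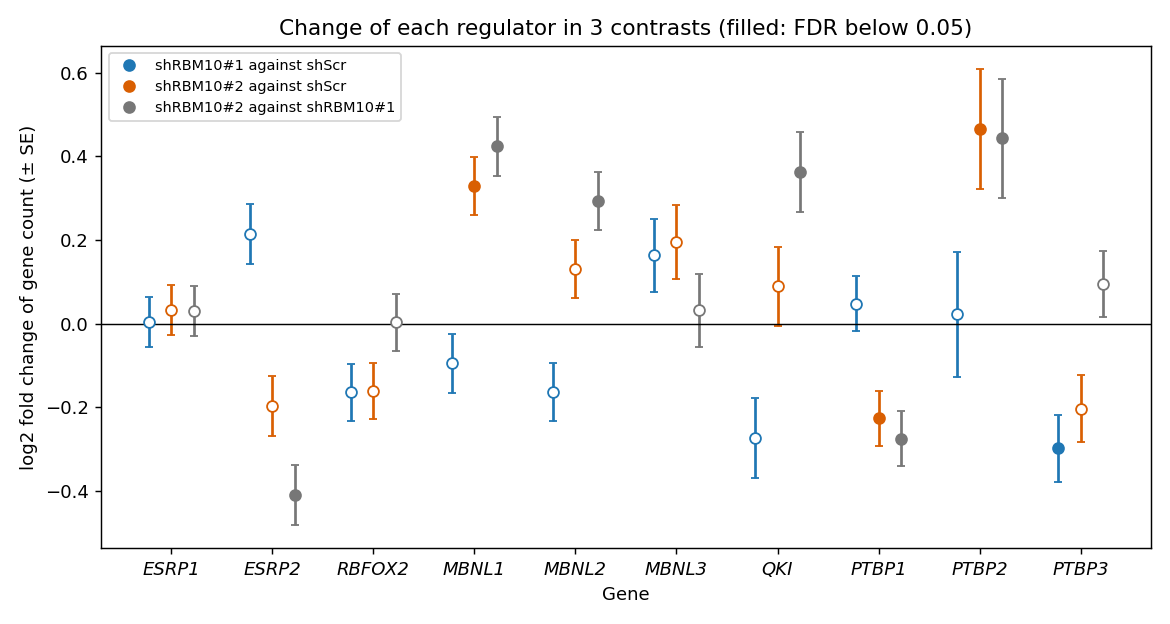
Log2 FC of the gene count of each regulator (y axis, bars are the SE of the edgeR fit) in 3 comparisons, with 2 libraries per condition. Filled points passed an FDR of 0.05: PTBP3 with shRBM10#1, MBNL1, PTBP1 and PTBP2 with shRBM10#2, and 6 genes between the shRNAs.

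Of the epithelial regulators, ESRP1 was not called in any comparison and ESRP2 differed between the shRNAs. ESRP1 had 218 and 219 CPM with shScr, 219 and 219 with shRBM10#1, and 221 and 226 with shRBM10#2. Its log2 FC was 0.00 ± 0.06 (SE) with shRBM10#1 and 0.03 ± 0.06 with shRBM10#2 (FDR = 0.980 and 0.726). ESRP2 had 86.7 and 80.8 CPM with shScr, 103 and 91.8 with shRBM10#1, and 73.6 and 72.6 with shRBM10#2. The 3 conditions did not overlap for ESRP2, with shRBM10#1 highest and shRBM10#2 lowest. Here and below, how many of all genes or isoforms separate by condition in this way was not counted. Against shScr neither difference passed the threshold, with a log2 FC of 0.21 ± 0.07 (FDR = 0.0675) for shRBM10#1 and -0.20 ± 0.07 (FDR = 0.0626) for shRBM10#2. ESRP2 was lower in shRBM10#2 than in shRBM10#1, with a log2 FC of -0.41 ± 0.07 (FDR = 0.00191). Among the 8 epithelial markers, 3 were called lower in shRBM10#2 than in shRBM10#1 (KRT7, KRT8 and KRT19), beside 25.5% of all genes called. Against shScr, KRT19 was the 1 marker called with shRBM10#1 (higher, log2 FC 0.28), beside 14% of all genes. With shRBM10#2, KRT19 was called lower than with shScr (log2 FC -0.28) and 1 other marker higher, beside 25.9% of all genes. The part of these markers in the ESRP2 result was not tested. Both differences of ESRP2 from shScr were called with an offset for transcript length (FDR = 0.0360 and 0.0422), that with shRBM10#1 also without shRBM10#1 replicate 2 (FDR = 0.0259), and that with shRBM10#2 also without either shRBM10#1 library (FDR = 0.0242 and 0.0237). In GENCODE 29, exons of NFATC3 on the opposite strand overlap those of ESRP2, and whether the libraries kept the strand is not given in the sources used here. NFATC3 counts were 1574 and 1780 with shScr, 1665 and 1765 with shRBM10#1, and 2257 and 2167 with shRBM10#2, which is the opposite direction to ESRP2 in shRBM10#2.

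RBFOX2, which acts through GCAUG elements, had 92.5 and 96.3 CPM with shScr, 87.7 and 80.8 with shRBM10#1, and 82.4 and 86.4 with shRBM10#2. All 4 knockdown libraries lay below both shScr libraries. The log2 FC was -0.16 ± 0.07 with each shRNA and did not pass the threshold (FDR = 0.131 for shRBM10#1 and 0.0985 for shRBM10#2). It was called with shRBM10#1 when shRBM10#1 replicate 1 was left out (FDR = 0.0471), and with shRBM10#2 when either shRBM10#1 library was left out (FDR = 0.0488 and 0.0486).

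Among the muscleblind genes, MBNL1 rose with shRBM10#2 and differed between the shRNAs. MBNL1 had 157 and 177 CPM with shScr, 158 and 155 with shRBM10#1, and 215 and 205 with shRBM10#2. Both shRBM10#2 libraries were above all others. The log2 FC of MBNL1 was 0.33 ± 0.07 with shRBM10#2 (FDR = 0.00535, 126% of shScr), -0.10 ± 0.07 with shRBM10#1 (FDR = 0.410) and 0.42 ± 0.07 for shRBM10#2 against shRBM10#1 (FDR = 0.00135). The rise was not called when shRBM10#2 replicate 1 was left out (FDR = 0.0869). An antisense RNA that overlaps MBNL1, MBNL1-AS1, had counts of 5.05 to 20.2 per library, beside 4943 to 7975 for MBNL1.

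MBNL2 had 94.3 and 104 CPM with shScr, 91.4 and 85.4 with shRBM10#1, and 108 and 109 with shRBM10#2. It was lowest in both shRBM10#1 libraries and highest in both shRBM10#2 libraries. The log2 FC was -0.16 ± 0.07 (FDR = 0.141) and 0.13 ± 0.07 (FDR = 0.185) against shScr, and 0.29 ± 0.07 for shRBM10#2 against shRBM10#1 (FDR = 0.00864), a call that was lost without shRBM10#2 replicate 1 or 2 (FDR = 0.0833 and 0.0924). MBNL3, the muscleblind paralog linked to proliferating and fetal cells, had 51.7 and 62.5 CPM with shScr, 62.7 and 65.2 with shRBM10#1, and 68.2 and 62.6 with shRBM10#2. Its shScr replicate 1 was the lowest library, and shScr replicate 2 was close to the lowest knockdown library. Neither difference from shScr was called, with a log2 FC of 0.16 ± 0.09 (FDR = 0.250) for shRBM10#1 and 0.20 ± 0.09 (FDR = 0.123) for shRBM10#2. With an offset for transcript length, both were called, with a log2 FC of 0.26 (FDR = 0.0238) and 0.25 (FDR = 0.0181), and the latter was also called without shScr replicate 2 (log2 FC 0.34, FDR = 0.0254).

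QKI had 45.7 and 57.3 CPM with shScr, 44.3 and 40.9 with shRBM10#1, and 55.9 and 53.7 with shRBM10#2. The shScr libraries spanned the range of the shRBM10#2 libraries, and both shRBM10#1 libraries lay below. The log2 FC was -0.27 ± 0.10 (FDR = 0.0771) with shRBM10#1 and 0.09 ± 0.09 (FDR = 0.530) with shRBM10#2, and 0.36 ± 0.10 for shRBM10#2 against shRBM10#1 (FDR = 0.0149). The latter was lost without shRBM10#1 replicate 2 or either shRBM10#2 library (FDR between 0.0703 and 0.114), whereas the fall with shRBM10#1 was called without shScr replicate 1 (log2 FC -0.43, FDR = 0.0142) and without a filter on low counts (log2 FC -0.28, FDR = 0.00994).

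Of the PTB family, PTBP1 fell and PTBP2 rose with shRBM10#2, and PTBP3 fell with shRBM10#1. PTBP1 had 663 and 685 CPM with shScr, 728 and 666 with shRBM10#1, and 571 and 581 with shRBM10#2. Both shRBM10#2 libraries were below the other 4 libraries, which overlapped. The log2 FC of PTBP1 was -0.23 ± 0.07 with shRBM10#2 (FDR = 0.0243, 85.5% of shScr), 0.05 ± 0.07 with shRBM10#1 (FDR = 0.682) and -0.27 ± 0.07 for shRBM10#2 against shRBM10#1 (FDR = 0.00955). PTBP2 had 5.27 and 4.59 CPM with shScr, 4.64 and 5.35 with shRBM10#1, and 7.08 and 6.53 with shRBM10#2, from 145 to 263 counts per library. Again both shRBM10#2 libraries stood outside the other 4. The log2 FC of PTBP2 was 0.47 ± 0.14 with shRBM10#2 (FDR = 0.0322), 0.02 ± 0.15 with shRBM10#1 (FDR = 0.944) and 0.44 ± 0.14 between the shRNAs (FDR = 0.0388).

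The calls for PTBP1 and PTBP2 with shRBM10#2 were each lost when any 1 of the 4 libraries compared was left out (FDR between 0.0521 and 0.209 for PTBP1 and between 0.0521 and 0.202 for PTBP2). Between the shRNAs, the PTBP1 call was lost without shRBM10#2 replicate 1 or 2 (FDR = 0.125 and 0.114) and the PTBP2 call without shRBM10#1 replicate 1 or either shRBM10#2 library (FDR between 0.119 and 0.229). For PTBP2, DESeq2 gave an adjusted p of 0.0780 with shRBM10#2 and 0.0911 between the shRNAs. PTBP3 had 259 and 312 CPM with shScr, 234 and 230 with shRBM10#1, and 247 and 248 with shRBM10#2. All 4 knockdown libraries were below both shScr libraries, and the shScr libraries were further apart than any knockdown pair. The log2 FC of PTBP3 was -0.30 ± 0.08 with shRBM10#1 (FDR = 0.0262, 81.3% of shScr) and -0.20 ± 0.08 with shRBM10#2 (FDR = 0.0794), and the shRNAs did not differ past the threshold (log2 FC 0.09 ± 0.08, FDR = 0.412). The fall with shRBM10#1 was not called without shScr replicate 2, the library with shorter fragments (log2 FC -0.16, FDR = 0.216). It was also lost without shRBM10#1 replicate 2 (FDR = 0.0846) and without shRBM10#2 replicate 1 or 2 (FDR = 0.0606 and 0.0599), which enter through the shared spread. Without shScr replicate 1, in contrast, PTBP3 was also called with shRBM10#2 (log2 FC -0.33, FDR = 0.0132).

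At the isoform level, 42 of the 51 isoforms passed the filter on low counts, and edgeR called none of them. With shRBM10#1 0 of 42 were called, against 0.0302% of all isoforms tested. The unadjusted p was below 0.05 for 13, beside 3832 of all 26464, and DESeq2 called 6, beside 2416 over all isoforms. With shRBM10#2 0 of 42 were called, against 2.26% of all isoforms. The unadjusted p was below 0.05 for 11, beside 5699 of all 26464, and DESeq2 called 7, beside 4598 over all isoforms. Between the shRNAs 0 of 42 were called, against 2.25%. The unadjusted p was below 0.05 for 15, beside 5377 of all 26464, and DESeq2 called 13, beside 4251 over all isoforms. In the pooled comparison 0 of 42 were called, against 0% of all isoforms. The unadjusted p was below 0.05 for 8, beside 2875 of all 26464, and DESeq2 called 2, beside 819 over all isoforms. The smallest FDR of these isoforms in edgeR was 0.0517, for QKI-7 with shRBM10#2. Those that DESeq2 called included QKI-7, with an adjusted p of 0.00314 for shRBM10#1 and 6.85e-05 for shRBM10#2. They also included NM_207295 of MBNL1, described below, with an adjusted p of 0.00345 and 4.32e-09 in the same order.

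A change in the share of an isoform within its gene, termed isoform usage, was tested for the 9 genes with at least 2 isoforms past the filter (ESRP2 has 1 isoform). Usage FDR is the adjusted Simes p of edgeR's diffSpliceDGE over 6405 genes. With shRBM10#2, 2 of 9 genes were called, MBNL1 (usage FDR = 0.00114) and QKI (usage FDR = 0.0278), against 2.75% of all genes, and limma's diffSplice called 1. An unadjusted p below 0.05 was found for 3 (MBNL1, QKI and PTBP1), beside 663 of all 6405 genes. How many of all genes limma called was not recorded. With shRBM10#1 0 of 9 were called, against 0.172%, and limma's diffSplice called 1. The unadjusted p was below 0.05 for 3 (MBNL1, MBNL3 and QKI), beside 395 of all 6405 genes. Between the shRNAs 0 of 9 were called, against 1.92%, and 0 by limma. The unadjusted p was below 0.05 for 2 (MBNL1 and MBNL3), beside 556 of all 6405 genes. In the pooled comparison 0 of 9 were called, against 0.515%, and 0 by limma. The unadjusted p was below 0.05 for 2 (MBNL1 and QKI), beside 348 of all 6405 genes.

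The MBNL1 call rested on isoform NM_207295, which lacks the 204-nt and 54-nt exons printed above and holds the 36-nt exon. It had 1.16 and 18.1 expected counts with shScr, 46.9 and 129 with shRBM10#1, and 459 and 430 with shRBM10#2. Its share of the TPM of MBNL1 was 0.02% and 0.33% with shScr, 1.05% and 2.46% with shRBM10#1, and 6.18% and 5.88% with shRBM10#2. The 3 conditions did not overlap in this share. Relative to the gene, the log2 FC of NM_207295 was 3.47 with shRBM10#2 (isoform FDR = 5.54e-04) and 2.21 with shRBM10#1 (isoform FDR = 0.0759). Without shScr replicate 2, the usage test of MBNL1 was also called with shRBM10#1 (FDR = 0.0332). Which isoform gave that call was not recorded. Another isoform, NM_207292, had 0.95 and 2.45 expected counts with shScr, 42.5 and 34.9 with shRBM10#1, and 0 and 0.05 with shRBM10#2. The leading isoform was NM_207293, which holds the 204-nt and 54-nt exons but not the 36-nt exon, with 58.3% to 64.7% of the TPM of MBNL1. Isoforms with the 204-nt exon made up 91.2% and 91.9% of MBNL1 with shScr, 94.1% and 88.8% with shRBM10#1, and 85.8% and 84.5% with shRBM10#2. The shRBM10#2 libraries were thus the lowest for the 204-nt exon. Isoforms with the 36-nt exon stayed between 28.6% and 33.5% in all 6 libraries, since NM_021038, which holds the 204-nt and 36-nt exons, went from 26.2% and 28.7% with shScr to 18.2% and 18.5% with shRBM10#2. The usage call of MBNL1 with shRBM10#2 was lost at a minimum of 10 counts in every library (FDR = 0.117) and when isoforms under 5% of their gene were dropped (FDR = 0.277), settings that both leave out NM_207295, and without shRBM10#2 replicate 1 or 2 (FDR = 0.115 and 0.120).

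The QKI call rested on QKI-7 (NM_206854), whose coding end is printed above. It had 0 and 0 expected counts with shScr, 13.6 and 17.6 with shRBM10#1, and 34.1 and 57.1 with shRBM10#2. Its share of the TPM of QKI was 0.59% and 0.66% with shRBM10#1 and 1.04% and 1.71% with shRBM10#2, so it remained a minor form in every library. QKI-5 held 63.0% to 72.4% of the TPM of QKI in the 6 libraries, and NM_001301085, which shares its coding end, held 22.4% to 31.2%. Isoforms with the QKI-5 end together made up 93.4% to 95.3%. The usage call of QKI was lost with limma (FDR = 0.410), with a minimum of 10 counts in every library and with the filter on minor isoforms (FDR = 1 for each), and when any 1 of the shScr or shRBM10#2 libraries was left out (FDR between 0.156 and 0.318), and with the replicate block (FDR = 0.0702).

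The other genes did not pass the usage test in any comparison. PTBP1 without the 78-nt exon (NM_031991) made up 15.8% and 14.3% of the TPM of PTBP1 with shScr, 16.7% and 17.0% with shRBM10#1, and 20.4% and 18.1% with shRBM10#2. The whole exon was present in 83.1% and 83.9% with shScr and in 78.2% and 79.8% with shRBM10#2. The 3 conditions did not overlap, but no usage change of PTBP1 was called. The usage FDR of PTBP1 was 0.207 with shRBM10#2 and 1 with shRBM10#1. For MBNL3, the form with 354 codons (NM_018388) had 16.6 and 63.2 expected counts with shScr, 452 and 485 with shRBM10#1, and 57 and 0 with shRBM10#2. Its share was 22.7% and 19.9% of the TPM of MBNL3 in the shRBM10#1 libraries and at most 3% in the other 4. The form with a shorter coding start and 258 codons (NM_001170703) held 69.5% and 73.4% with shRBM10#1 and 80.7% to 90.4% elsewhere. The usage FDR of MBNL3 was 0.793 with shRBM10#1 and 0.286 between the shRNAs.

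In PTBP2, isoforms with the 34-nt exon printed above had 24.2 and 72.2 expected counts with shScr, 137 and 136 with shRBM10#1, and 104 and 86.2 with shRBM10#2. The non-coding isoforms without it had 147 and 78.8 with shScr, 7.93 and 60.7 with shRBM10#1, and 159 and 164 with shRBM10#2. The exon was thus in 13.9% and 47.4% of the TPM of PTBP2 with shScr, 94.3% and 69.1% with shRBM10#1, and 38.7% and 34.2% with shRBM10#2. Both shRBM10#1 libraries had the highest inclusion and the shScr libraries spanned those of shRBM10#2. The usage FDR of PTBP2 was 0.815, 1 and 0.753 for shRBM10#1, shRBM10#2 and the comparison between the shRNAs, and these shares rest on at most 164 counts in either class.

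**Figure D3:**
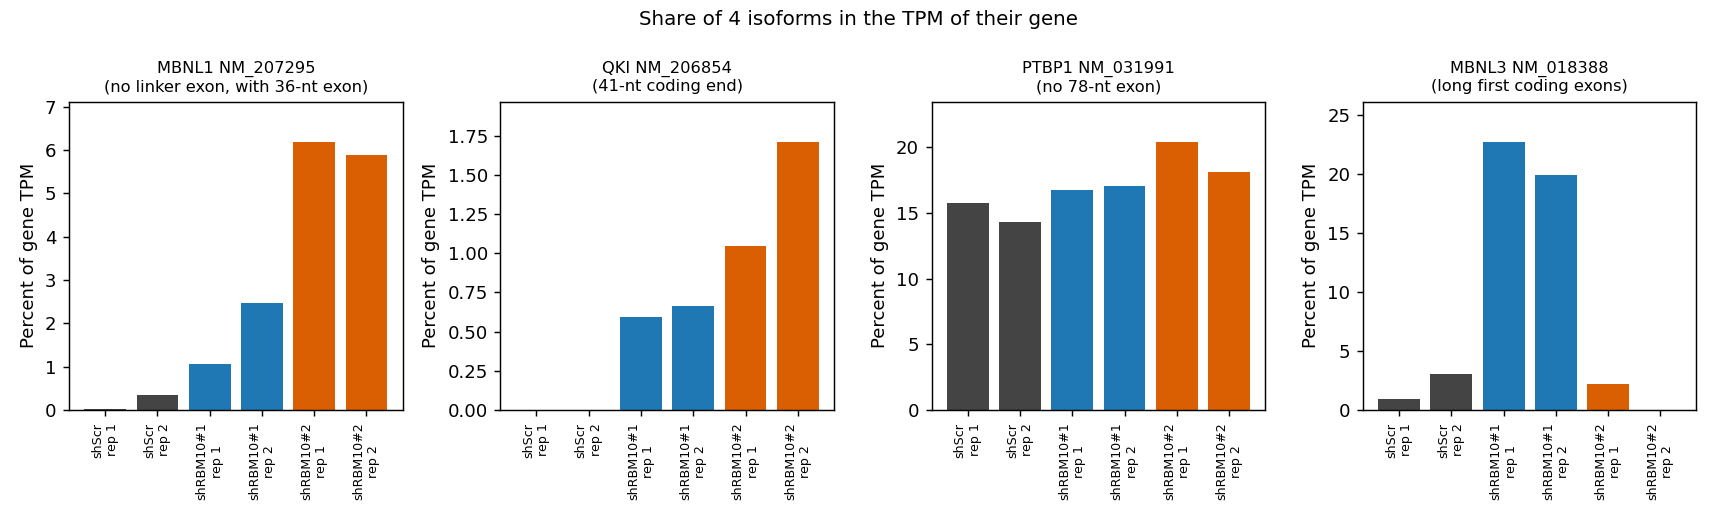
Share of 4 isoforms in the TPM of their gene (percent, bars from 0, 1 bar per library). NM_207295 of MBNL1 is at 0.33% or less with shScr and at 5.88% and 6.18% with shRBM10#2, QKI-7 is at 1.71% or less throughout, NM_031991 of PTBP1 lies between 14.3% and 20.4%, and NM_018388 of MBNL3 is at 19.9% and 22.7% with shRBM10#1 and at most 3% elsewhere.

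ESRP1 showed no called shift between its isoforms. The isoforms with the 199-nt form of an alternative coding exon, 12 nt longer than the 187-nt form, made up 56.6% to 59.6% of the TPM of ESRP1 in the 6 libraries. Its leading isoform NM_017697 held 43.7% to 50.8%, and the smallest usage FDR of ESRP1 was 1. In RBFOX2 the leading isoform NM_001082579 held 45.9% and 48.8% with shScr, 40.0% and 48.1% with shRBM10#1, and 40.3% and 31.3% with shRBM10#2, with a usage FDR of 0.980 for shRBM10#2. In MBNL2 the form without the 36-nt exon (NM_207304) led, with 64.6% to 75.0%, and inclusion of the exon was 34.7% and 31.1% with shScr, 30.8% and 25% with shRBM10#1, and 35.4% and 35.4% with shRBM10#2. In MBNL3, by contrast, the 36-nt exon was in isoforms that made up 97.6% to 100% of the TPM. PTBP3 was led by NM_001163788, with 50.2% to 60.3% of its TPM, and by NM_001244896, with 29.6% to 35.9%.

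Of 30 further tissue-type splicing regulators listed beside the 10 genes, 15 passed the filter, and those left out included neuronal factors of the NOVA, ELAVL and CELF families. With shRBM10#1, 1 of 15 was called, beside the 14% of all genes: RBM38, an RNA-binding protein of epithelial and muscle differentiation, at 68.0 and 63.7 CPM with shScr and 76.3 and 77.7 CPM with shRBM10#1 (log2 FC 0.22 ± 0.07, FDR = 0.0401). That call was lost with DESeq2 (adjusted p = 0.0506), with the replicate block (FDR = 0.0642) and when any 1 library other than shRBM10#1 replicate 1 was left out (FDR between 0.0510 and 0.200). With shRBM10#2, 3 of 15 were called, beside 25.9% of all genes, HNRNPM lower and RAVER2 and MATR3 higher. HNRNPM, a hnRNP protein that competes with ESRP1 at shared exons, had 575 and 608 CPM with shScr, 663 and 561 with shRBM10#1, and 485 and 460 with shRBM10#2 (log2 FC -0.32 ± 0.08 with shRBM10#2, FDR = 0.0114). RAVER2, a paralog of the PTBP1 partner RAVER1, had 19.7 and 21.5 CPM with shScr and 24.3 and 25.1 CPM with shRBM10#2 (log2 FC 0.26 ± 0.08, FDR = 0.0381). MATR3, a PTBP1-binding nuclear matrix protein, had 321 and 349 CPM with shScr and 397 and 396 CPM with shRBM10#2 (log2 FC 0.24 ± 0.06, FDR = 0.0158). These 3 calls were each lost without shRBM10#2 replicate 1 or 2 (FDR between 0.0663 and 0.239). That of HNRNPM was also lost without shScr replicate 2 (FDR = 0.0718), those of RAVER2 and MATR3 without shScr replicate 1 (FDR = 0.189 and 0.0972), and that of RAVER2 with DESeq2 (adjusted p = 0.0892) and the replicate block (FDR = 0.0572). Between the shRNAs, 3 of 15 were called, beside 25.5% of all genes, with HNRNPM (log2 FC -0.37 ± 0.08) and RAVER1 (-0.20 ± 0.07) lower and RAVER2 (0.37 ± 0.08) higher in shRBM10#2 (FDR = 0.00535, 0.0418 and 0.00680). All 3 were lost without shRBM10#2 replicate 2 (FDR between 0.0848 and 0.259), RAVER1 and RAVER2 also without shRBM10#2 replicate 1 (FDR = 0.223 and 0.0549), and RAVER1 without shRBM10#1 replicate 1 (FDR = 0.160) and with the block (FDR = 0.0573). In the pooled comparison edgeR called 0 of 15, beside 1.62% of all genes. The unadjusted p was below 0.05 for 2, beside 2450 of all 14217 genes.

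A list of 39 genes known to be spliced by these regulators was examined for isoform usage, and 33 had at least 2 isoforms past the filter. With shRBM10#1, 1 of 33 was called (CTNND1), beside 0.172% of all genes. With shRBM10#2, 4 of 33 were called (CTNND1, CD44, FN1 and PKM), beside 2.75%. Between the shRNAs 1 of 33 was called (FN1), beside 1.92%, and in the pooled comparison 1 of 33 (CTNND1), beside 0.515%. The members of this list called with shRBM10#2 include genes listed as epithelial ESRP targets (CTNND1, CD44), as an RBFOX2 target (FN1) and as a PTBP1 target (PKM). The list is by gene, so a called isoform need not differ at the exon that the protein regulates. Genes on the list are known targets of these proteins in other cells, and binding in PC-9 cells was not measured.

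CTNND1 encodes p120-catenin, whose epithelial and mesenchymal isoforms differ in their coding start. The isoform NM_001085468 made up 25.6% and 26.9% of the TPM of CTNND1 with shScr, 17.0% and 13.9% with shRBM10#1, and 15.9% and 13.3% with shRBM10#2. All 4 knockdown libraries were below both shScr libraries, and the relative log2 FC was -0.53 with shRBM10#1 (usage FDR of CTNND1 = 0.0205) and -0.59 with shRBM10#2 (usage FDR = 6.91e-04). NM_001085468 has the same 15 coding exons as NM_001085467, NM_001085469 and NM_001206890 in GENCODE 29, so these isoforms differ outside the coding sequence. NM_001085464, which holds an additional 87-nt coding exon, made up 36.4% and 35.6% with shScr, 40.6% and 47.8% with shRBM10#1, and 46.3% and 44.2% with shRBM10#2. The isoform NM_001085462, with a longer coding start and 17 coding exons, made up 4.27% and 4.45% with shScr, 4.89% and 5.08% with shRBM10#1, and 8.14% and 7.60% with shRBM10#2, highest in both shRBM10#2 libraries. The CTNND1 call with shRBM10#1 was lost when any 1 of the 6 libraries was left out (FDR between 0.0662 and 0.493) and with the replicate block (FDR = 0.136), and that with shRBM10#2 was lost without shRBM10#2 replicate 2 (FDR = 0.163). The pooled call of CTNND1 (usage FDR = 0.0293) was also lost when any 1 library was left out (FDR between 0.0504 and 1), at a minimum of 10 counts in every library (FDR = 0.0578) and with the block (FDR = 0.186).

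CD44 encodes a hyaluronan receptor whose variable exons are included in epithelial cells under the ESRP proteins. The isoform with 18 coding exons and the longest variable region, NM_000610, made up 3.03% and 4.02% of the TPM of CD44 with shScr, 4.75% and 5.17% with shRBM10#1, and 7.99% and 7.02% with shRBM10#2 (usage FDR of CD44 = 0.00261 with shRBM10#2). The standard form with 9 coding exons and no variable exon, NM_001001391, made up 4.53% and 5.54% with shScr, 5.58% and 4.26% with shRBM10#1, and 3.25% and 3.71% with shRBM10#2. NM_000610 was thus higher and the standard form lower in both shRBM10#2 libraries than in the other 4. The leading isoform NM_001001390, with 12 coding exons, held 71.1% and 68.1% with shScr, 67.2% and 67.1% with shRBM10#1, and 60.8% and 61.8% with shRBM10#2. NM_001001389, with 17 coding exons, held 21.2% and 22.2% with shScr, 22.4% and 23.4% with shRBM10#1, and 27.8% and 27.4% with shRBM10#2, so that longer variable forms were higher and the 12-exon form lower in both shRBM10#2 libraries. The call was lost without shScr replicate 1 (FDR = 0.104) and without shRBM10#2 replicate 1 or 2 (FDR = 0.248 and 0.125).

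PKM encodes pyruvate kinase, in which PTBP1 represses the exon of the M1 form in favor of the exon of the M2 form. The 2 exons are mutually exclusive and of equal length, at chr15:72203022-72203188 for M1 (NM_182471) and chr15:72202454-72202620 for M2 (NM_002654), on the minus strand, and are shown because they are what tells the isoforms apart. Capitals mark the 62 of 167 positions at which they differ.
PKM M1 exon: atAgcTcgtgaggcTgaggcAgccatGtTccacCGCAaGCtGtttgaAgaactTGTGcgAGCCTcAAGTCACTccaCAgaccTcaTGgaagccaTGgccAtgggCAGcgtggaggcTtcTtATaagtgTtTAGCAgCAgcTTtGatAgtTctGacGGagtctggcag
PKM M2 exon: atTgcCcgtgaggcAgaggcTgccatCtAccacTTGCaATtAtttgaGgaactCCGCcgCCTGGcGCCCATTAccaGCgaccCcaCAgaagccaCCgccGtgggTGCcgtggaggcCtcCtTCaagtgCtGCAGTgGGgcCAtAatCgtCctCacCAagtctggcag

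The call rested on NM_182471, 1 of 4 PKM isoforms whose GENCODE transcript holds the M1 exon. It had 110 and 109 expected counts with shScr, 71.1 and 388 with shRBM10#1, and 628 and 753 with shRBM10#2. Its share of the TPM of PKM was 0.0971% and 0.0997% with shScr, 0.0676% and 0.328% with shRBM10#1, and 0.585% and 0.670% with shRBM10#2. The shRBM10#2 libraries were highest for NM_182471, and the shRBM10#1 libraries lay on either side of shScr. All 4 isoforms with the M1 exon together made up 0.440% and 0.477% of the TPM of PKM with shScr, 0.596% and 0.538% with shRBM10#1, and 0.873% and 0.973% with shRBM10#2, so that the 3 conditions did not overlap and the difference from shScr was smaller than for NM_182471 alone. The M2 isoform NM_002654 held 98.5% to 99.1% in the 6 libraries. The usage FDR of PKM was 0.0123 with shRBM10#2 and 1 with shRBM10#1. The call was lost when any 1 of the shScr or shRBM10#2 libraries was left out (FDR between 0.167 and 0.424) and with the replicate block (FDR = 0.0648). Without shRBM10#1 replicate 2, PKM was also called between the shRNAs (FDR = 0.0125). In FN1, which encodes fibronectin, the call with shRBM10#2 (usage FDR = 0.0138) rested on NM_001306132, with 293 and 164 expected counts with shScr, 74.7 and 207 with shRBM10#1, and 0 and 0.03 with shRBM10#2. It was lost at a minimum of 10 counts in every library (FDR = 0.223), with limma (FDR = 0.180), without minor isoforms (FDR = 0.413), with the replicate block (FDR = 0.0597) and without any 1 of the 4 knockdown libraries (FDR between 0.0681 and 0.217). The call of FN1 between the shRNAs (usage FDR = 0.0348) was lost in the same settings. By exon lengths, NM_212478 (46 coding exons) has those of NM_001306132 (45 coding exons) and an additional one. Whether the FN1 calls involve an exon regulated by RBFOX2 was not tested.

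**Figure D4:**
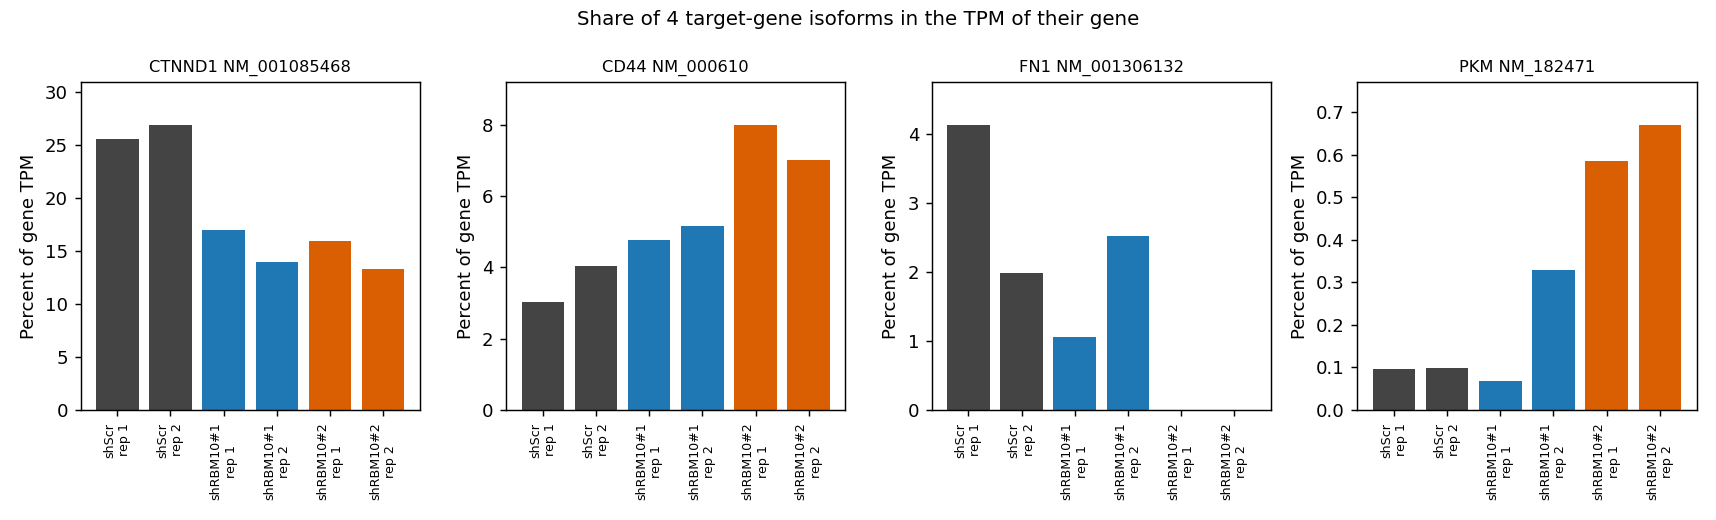
Share of 4 isoforms of known target genes in the TPM of their gene (percent, bars from 0, 1 bar per library). NM_001085468 of CTNND1 is at 25.6% and 26.9% with shScr and at 13.3% to 17.0% with the RBM10 shRNAs, NM_000610 of CD44 and NM_182471 of PKM are highest with shRBM10#2, and NM_001306132 of FN1 is listed at 0% of TPM with shRBM10#2.

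The genes whose pattern over the 6 libraries was nearest to that of the 3 regulators with the smallest p values against shScr were found by the root mean square difference of their centered log2 CPM. For MBNL1 they were SASS6 (0.03), ZNF92 (0.03) and ATL3 (0.03), beside a standard deviation of 0.21 for MBNL1 itself. For PTBP1 they were PSMC3 (0.02), ZBTB7B (0.02) and DCTN1 (0.02), beside a standard deviation of 0.14. For PTBP3 they were PFKFB4 (0.03), SAMHD1 (0.03) and SEC23B (0.04), beside a standard deviation of 0.16. These are descriptions over 6 libraries that share their conditions.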

How the data were processed

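RNA from 6 PC-9 libraries was analyzed, 2 per condition. Per the submitters' processing notes, STAR 2.4, RSEM 1.2.29, edgeR and the build hg19 were used. The authors deposited, per RefSeq isoform, an expected count from RSEM, TPM per effective length, the percent of the gene given by each isoform, and FPKM, which was not used here. The authors' files also hold isoform and effective lengths (in nt), from which the fragment length was computed. The strand protocol is not given in the sources used here.

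Expected counts, rounded after summing per gene, entered the quasi-likelihood test of edgeR 4.0.16 (R 4.3.3), with TMM scaling, filterByExpr by condition, 1 coefficient per condition over all 6 libraries and Benjamini-Hochberg adjustment over all features. All tests were two-sided. CPM is the count scaled to library size after TMM. Usage was tested with diffSpliceDGE. Alternatives used DESeq2 1.42.0, limma 3.58.1, other filters, a loess length offset (span 0.3), the replicate block and each library left out. Isoforms were matched to GENCODE 29 by identifier, and 39 of the 51 had 1 coding structure. The scripts were tested on simulated counts, with 200 features changed by a log2 FC of 2 in shRBM10#2. Against shScr, they recovered 97.5% of the changed genes, 58% of the isoforms and 24% of the genes with changed usage. Isoform or usage results that were not called therefore do not show that there was no change. Recovery at a smaller log2 FC or with shRBM10#1 was not tested. Gene results that were not called thus do not show that there was no change either. Python 3.11.15 was used for structures and matplotlib 3.10.9 for figures.

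The members and lists were chosen with earlier results of these data known. The text names all members with their leading or called isoforms, RBM10, listed regulators called in any comparison, listed targets with a called usage change, and the 3 nearest genes of the 3 members with the smallest p against shScr. The single marker genes, the grouping of PTBP2 and PKM isoforms by exon, and NM_001085462, NM_001001389 and NM_207292 were added after their values were seen.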

Additional observations from a re-analysis of the deposited data

How the results depend on the processing

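Of the 10 regulators, 0 were called in any comparison with a log2 FC above 1 as a further criterion, and so were 0 of the other regulators. With shRBM10#1, the 1 gene called became 3 without a filter on low counts and 3 with the length offset, alone or with the replicate block. Over all genes, 1996 called became 2591 (of 19208 tested) without the filter, 2447 with the offset and 2359 with offset and block. With shRBM10#2, 3 became 6 with the length offset, alone or with the block, which added ESRP2, MBNL3 and PTBP3. Over all genes, 3685 called became 4368 with the offset and 4216 with offset and block. For isoforms, the 0 called with shRBM10#1 became 6 with DESeq2, while the 8 called over all isoforms became 2416. With shRBM10#2, 0 became 7 with DESeq2, 4 at a minimum of 10 counts and 2 with the length offset, while 597 over all isoforms became 4598, 1647 and 1227. Between the shRNAs, 0 became 13, 7 and 4 in these settings, while 595 over all isoforms became 4251, 1403 and 1278. In the pooled comparison, 0 became 2 with DESeq2, while 0 over all isoforms became 819. The other regulators called with shRBM10#1 became 0 with DESeq2 or the replicate block, and 2 without a filter or with the length offset, alone or with the block. Over all genes, 1723 were called with DESeq2 and 1755 with the replicate block. Isoform usage of the 9 regulators became 1 with limma with shRBM10#1. With shRBM10#2 it became 1 with limma, 0 at a minimum of 10 counts, 0 without isoforms under 5% of their gene and 1 with the replicate block. Known targets became 0 with shRBM10#1 at a minimum of 10 counts or with the block. With shRBM10#2 they became 7 with limma, 2 without minor isoforms and 2 with the block. Between the shRNAs they became 2 with limma and 0 at a minimum of 10 counts, without minor isoforms or with the block, and in the pooled comparison 1 became 0 at a minimum of 10 counts or with the block. PKM, with 1 isoform left, gave no usage value without minor isoforms. For usage, the number called over all genes in these settings was not recorded. The cause was not tested for any of these changes. The other settings left each count within 1.5 times its value.

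With each library left out in turn, 1 condition kept 1 library, so the numbers called in these fits are not given. The numbers of genes and isoforms called over the whole fit changed in them as well. Losses of single calls, given above with their genes, are therefore not a trait of these regulators alone. The log2 FC of RBM10 ranged from -0.58 to -0.50 and from -1.67 to -1.62.

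The replicate numbers did not pair the libraries: the deviations of same-numbered libraries correlated at -0.02 to 0.00 over genes. With the replicate block, PTBP1 with shRBM10#2 was no longer called (FDR = 0.0532), nor was PTBP2 between the shRNAs (FDR = 0.0530). The usage calls of QKI, FN1 and PKM with shRBM10#2 (FDR = 0.0702, 0.0597 and 0.0648), of FN1 between the shRNAs (FDR = 0.118) and of CTNND1 with shRBM10#1 and in the pooled comparison (FDR = 0.136 and 0.186) were lost too, as were the calls of RBM38 with shRBM10#1, RAVER2 with shRBM10#2 and RAVER1 between the shRNAs. With 2 libraries per condition and minor isoforms of few counts, shares such as that of QKI-7 rest on how RSEM divides few reads, and intervals for that step were not computed.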

Other observations

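The balance between paralogs is given here as the ratio of their TPM in each library, with no test. ESRP1 was at 2.73 and 2.94 times the level of ESRP2 with shScr, 2.32 and 2.58 times with shRBM10#1, and 3.25 and 3.37 times with shRBM10#2, so that the 3 conditions did not overlap. MBNL1 was at 1.36 and 1.39 times the level of MBNL2 with shScr, 1.41 and 1.49 times with shRBM10#1, and 1.66 and 1.57 times with shRBM10#2, again without overlap. PTBP1 was at 6.54 and 5.55 times the level of PTBP3 with shScr, 7.92 and 7.37 times with shRBM10#1, and 5.90 and 5.95 times with shRBM10#2, where the shScr libraries spanned those with shRBM10#2.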
